A study of Homo sapiens with 8 samples.

Results

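Mitochondrial ribosomal protein mRNAs were taken as all rows of the deposited gene tables whose symbol is MRPL or MRPS followed by a number and at most 1 letter from A to C, which left out pseudogenes. The rule found 78 of 57756 genes, with 76 different symbols, because MRPL30 and MRPS17 are each listed as 2 genes at 1 locus. RNA was pulled down by RNA immunoprecipitation (RIP) with an antibody to RPS6 (ribosomal protein S6, part of the small subunit of the cytosolic ribosome). It was sequenced beside the input, which is lysate RNA without pull-down. No library comes from a pull-down with a control antibody, so RNA held by beads or antibody alone cannot be told apart from RPS6-bound RNA. The 8 libraries came from 4 human cancer cell lines with 1 RIP and 1 input library each: Hep3B (hepatocellular carcinoma), HCT116 (colon carcinoma), DU145 (prostate carcinoma), and SW1990 (pancreatic adenocarcinoma). The sample titles place the liver pair in Hep3B cells and the cell line field places it in Huh7 cells, and the pair is called Hep3B here.

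The mitochondrial ribosome makes the few proteins encoded by mitochondrial DNA, all of them parts of the oxidative phosphorylation complexes or of ATP synthase. Its RNAs are transcribed in mitochondria, while all of its proteins are encoded in the nucleus, translated on cytosolic ribosomes, and imported. Some of these proteins have a counterpart in the bacterial ribosome, and others were added in the mitochondrial lineage. An RPS6 pull-down is meant to capture cytosolic ribosomes with the mRNAs they carry. The comparison of RIP with input asks how strongly each of these nuclear-encoded mRNAs was represented among the RNAs pulled down.

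Recovered fragments ranged from 34630363 to 54209631 per library. The summed FPKM (fragment counts scaled to transcript length and to library depth) of 7 liver marker genes was 15347 in the Hep3B input and at most 17.1 in the other inputs. Of 5 intestinal markers, CDX2 had 6.25 FPKM in the HCT116 input, against 86.6 in SW1990 and 0.374 in Hep3B, and the other 4 were at or near 0 in HCT116. Among those 4, VIL1 and LGR5 were highest in the Hep3B input (151.4 and 18.4 FPKM). The 4 prostate markers summed to 0.0220 FPKM in DU145, so they were at or near 0 there. Of 5 markers of pancreatic duct, PDX1 and SOX9 were highest in the SW1990 input (12.7 and 60.6 FPKM). The keratin KRT19 was highest in HCT116 (570.3 FPKM), and KRT7 and MUC1 were highest in DU145 (253.8 and 76.6 FPKM). The 4 epithelial markers summed to between 299.5 and 1716 FPKM in the inputs. The 4 markers of blood and stroma summed to at most 4.31 FPKM there.

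As a group, mitochondrial ribosomal protein mRNAs were lower in RIP than in input. Of 77 tested members, 50 fell, 12 rose, and 15 were not called at an adjusted p of 0.05 (edgeR's quasi-likelihood test over 4 pairs). Over all 19921 genes tested the same rule called 24.9% lower and 26.5% higher, and over the 14640 protein-coding genes among them it called 26.2% lower and 32% higher. The share of members called was 64.9% lower and 15.6% higher. The median log2 fold change of RIP over input was -0.97 for the members, -0.05 for all genes tested, and 0.12 for protein-coding genes. Of the members called lower, 36 fell at least 2-fold and 14 at least 4-fold, while 2 of those called higher rose at least 2-fold. Shares past these folds were not counted over other genes. The quartiles of the log2 fold change were -1.73 and -0.19 for the members. They were -1.12 and 0.99 for all genes tested, and -0.91 and 1.11 for protein-coding genes. The sizes ranged from -3.80 for MRPL30 to 1.42 for MRPL38. A fold change here is a share of a library's RNA relative to most other genes, since the amount of RNA that the pull-down recovered is not given in the sources used here.

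**Figure D1:**
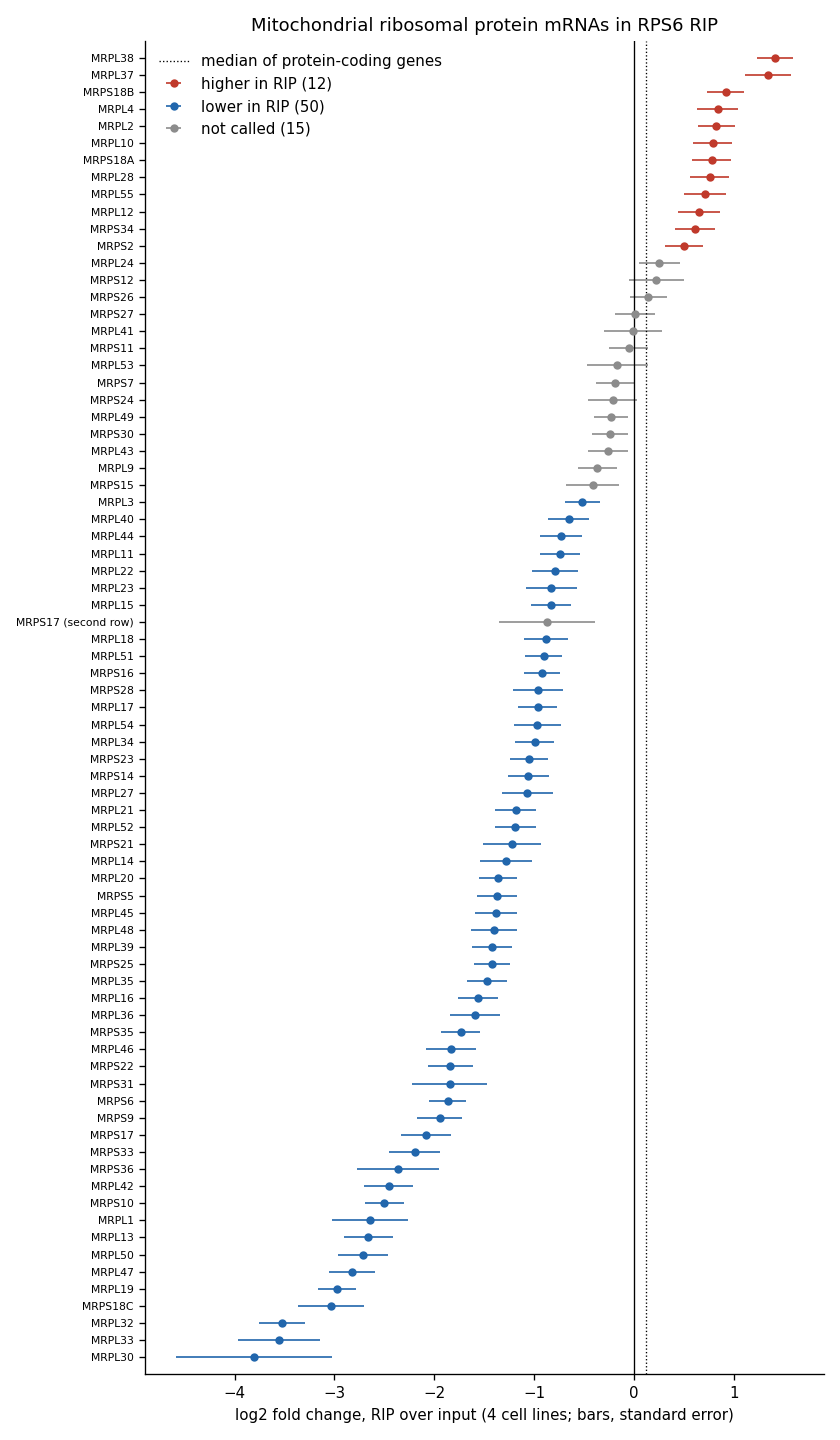
Log2 fold change of RIP over input for each of the 77 tested mitochondrial ribosomal protein mRNAs (x axis, log2, and y axis, genes ordered by value). Bars give the standard error of the edgeR fit, taken from its quasi-likelihood F statistic, and not the observed spread over the 4 pairs. The 50 members called lower lie between -3.80 and -0.52, the 12 called higher lie between 0.50 and 1.42, and the dotted line marks the median of protein-coding genes at 0.12.

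The count of members that fell was between 46 and 52 when each cell line was left out in turn. Of the 19325 to 19987 genes tested in these fits, 4084 to 5083 were called lower. The count of members that rose was less stable. It was 7 without Hep3B, 7 without DU145, and 3 when libraries were scaled by their totals alone, a scaling that moved the median of all genes by -0.35. Over all genes tested, these settings called 4808, 4448, and 3888 higher, in the same order. Without the cell line as a block in the test, 20 members fell and 1 rose, which was MRPL37. MRPL38 was then not called (edgeR adjusted p = 0.0892). Calls over all 19921 genes also dropped without the block, from 4960 to 1344 lower and from 5282 to 1427 higher.

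The separate cell lines, which gave the calls together, are described by their own ratios. Log2 ratios of RIP to input, computed on FPKM with 1 added to each value, were below 0 in 4 of 4 lines for 46 of the 50 members called lower and above 0 in 4 of 4 lines for all 12 called higher. Among tested protein-coding genes, 22% lay below 0 and 35.4% above 0 in all 4 lines, against 46 and 13 of the 77 members. The FPKM of all 4 RIP libraries was below that of all 4 inputs for 23 members, against 8.08% of protein-coding genes, and above it for 3 members, against 13%.

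Within a cell line, with 1 library on each side and no test, the median log2 ratio of the 77 members was -0.34 for Hep3B, -0.85 for HCT116, -0.67 for DU145, and -1.06 for SW1990. Protein-coding genes had medians of 0.19, 0.08, 0.10, and 0.09 in the same order. Members were therefore lower than the typical protein-coding mRNA in each line, by 0.53 in Hep3B and by 1.16 in SW1990 on the log2 scale, and 58, 61, 58, and 61 of 77 members lay below the protein-coding median. SW1990 had the lowest ratio of the 4 lines for 41 members, and Hep3B had the highest for 35. The input is the denominator of each ratio. Of the 4 inputs, that of SW1990 was the highest for 55 members and that of Hep3B the lowest for 26. These orders were not counted over other genes. The Hep3B and HCT116 pairs were deposited in 1 table and the DU145 and SW1990 pairs in another, and the medians were negative in both tables.

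**Figure D2:**
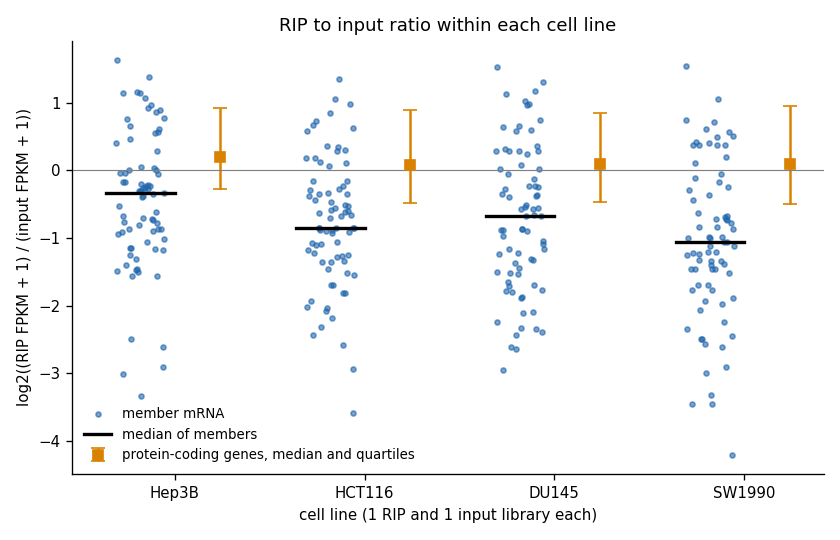
Log2 ratio of RIP to input FPKM within each cell line (y axis, with a pseudocount of 1; x axis, cell line), for 77 mitochondrial ribosomal protein mRNAs (points), their median (bar), and tested protein-coding genes (square, median, with quartiles). Medians of members lie between -1.06 in SW1990 and -0.34 in Hep3B, and those of protein-coding genes between 0.08 and 0.19.

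The share of a library's fragments that fell on the members decreased from input to RIP in each cell line. In Hep3B cells 0.379% of input and 0.287% of RIP fragments fell on them. The shares went from 0.501% to 0.278% for HCT116, from 0.372% to 0.233% for DU145, and from 0.633% to 0.336% for SW1990. The inputs of the 4 lines differed more in this share than the RIP libraries did.

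The 3 lowest members, MRPL30, MRPL33, and MRPL32, belong to the large subunit. MRPL33, a small protein with a bacterial counterpart, had 32.3, 29.2, 54.4, and 103.1 FPKM in the inputs of Hep3B, HCT116, DU145, and SW1990 cells, and 4.48, 1.51, 9.53, and 4.66 FPKM after RIP. All RIP values were below all inputs. The fitted reduction was 11.8-fold (log2 fold change -3.56 ± 0.41 SE, adjusted p = 5.47e-05, edgeR).

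MRPL32, which is processed by a mitochondrial protease before it joins the large subunit, had inputs of 48.8, 24.5, 34.6, and 60.9 FPKM and RIP values of 5.22, 3.73, 3.60, and 4.63 FPKM in the same order of lines. The RIP libraries of the 4 lines lay close together and far below every input, with a reduction of 11.5-fold (-3.53 ± 0.23 SE, edgeR adjusted p = 1.23e-05).

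MRPL19, another protein with a bacterial counterpart, had 44.6, 57.6, 53.1, and 76.1 FPKM in the inputs and 7.14, 10.7, 7.82, and 12.7 FPKM in the RIP libraries. Its log2 ratios in the 4 lines differed by only 0.30 between the highest and the lowest. The reduction was 7.85-fold (-2.97 ± 0.19 SE, edgeR adjusted p = 1.23e-05).

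MRPL47 fell 7.08-fold (-2.82 ± 0.23 SE, edgeR adjusted p = 1.37e-05), with log2 ratios from -1.45 in Hep3B to -3.00 in SW1990 cells. MRPL30 had the lowest fitted value, -3.80 ± 0.78 SE (edgeR adjusted p = 0.00216), with 447, 579, 1115, and 459 fragments in the inputs and 0, 94, 63, and 24 after RIP, in the order Hep3B, HCT116, DU145, and SW1990. Its standard error was the widest of the tested members, and its reads come from a locus with 14 listed genes, among them the second MRPL30, so that the split of reads between genes is uncertain. The second MRPL30 had at most 13 fragments in a library and was the only member not tested. The second MRPS17 passed the filter with between 12 and 138 fragments and was not called (-0.87 ± 0.48 SE, edgeR adjusted p = 0.158), while the first MRPS17, a small subunit protein with a bacterial counterpart, fell 4.23-fold (edgeR adjusted p = 7.43e-05).

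MRPL38 and MRPL37, both large subunit proteins without a bacterial counterpart, showed the opposite pattern. MRPL38 had 47.5, 84.7, 36.1, and 76.7 FPKM in the inputs and 125.4, 217.3, 72.5, and 161.2 FPKM after RIP, in the same order of lines. Each RIP library was above its own input, although the DU145 RIP library was below the HCT116 and SW1990 inputs. The increase was 2.67-fold (1.42 ± 0.18 SE, edgeR adjusted p = 9.65e-05). MRPL37 had inputs of 56.7, 114.2, 54.7, and 74.8 FPKM and RIP values of 177.1, 171.6, 159.9, and 219.2 FPKM, all above every input, and rose 2.54-fold (1.35 ± 0.23 SE, edgeR adjusted p = 0.000672). Both loci hold further listed genes, 4 in all for MRPL38 and 8 for MRPL37.

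MRPS18B, MRPL4, MRPL2, and MRPL10 completed the 6 members with the largest increases. MRPL4 lines the exit tunnel for the nascent chain, MRPL2 lies near the peptidyl transferase centre, and MRPL10 anchors the stalk that recruits translation factors. Their log2 fold changes were 0.84 ± 0.21, 0.82 ± 0.19, and 0.79 ± 0.19 (SE; edgeR adjusted p = 0.00615, 0.00371, and 0.00620), and their log2 ratios were above 0 in each of the 4 lines, between 0.36 and 1.16. These 3 calls were lost when libraries were scaled by their totals alone, and also without the block. MRPL12, the protein that MRPL10 carries in the stalk, also rose (0.65 ± 0.21 SE, edgeR adjusted p = 0.0258), while MRPL11, at the stalk base, fell (-0.74 ± 0.20 SE, edgeR adjusted p = 0.00985). MRPL12 and MRPL11 are named after their values were seen. The call of MRPL12 was lost without Hep3B, without DU145, and under scaling by library totals, upper quartiles, or protein-coding genes, and that of MRPL11 with limma on log2(FPKM + 1). Both were lost without the block.

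The 3 paralogues of the bacterial S18 protein were called in both directions. MRPS18C occupies the bacterial position in the small subunit, MRPS18B lies elsewhere in the small subunit, and MRPS18A is part of the large subunit despite its name. MRPS18C had 24.5, 21.6, 9.51, and 50.2 FPKM in the inputs and 2.42, 1.96, 2.07, and 8.43 FPKM in the RIP libraries, an 8.2-fold reduction (-3.04 ± 0.33 SE, edgeR adjusted p = 3.83e-05) with all RIP values below all inputs. MRPS18B had 91.7, 76.5, 45.1, and 52.6 FPKM in the inputs and 193.5, 160.1, 93.3, and 87.0 FPKM in the RIP libraries, which was 1.89-fold higher (0.92 ± 0.19 SE, edgeR adjusted p = 0.00194). MRPS18A, named after its values were seen, had 19.5, 21.4, 21.8, and 33.02 FPKM in the inputs and 44.4, 34.6, 34.8, and 43.2 FPKM after RIP, which was 1.72-fold higher (0.78 ± 0.20 SE, edgeR adjusted p = 0.00759), with no overlap of the groups. The difference between paralogues was not tested, and the call of MRPS18A was lost without Hep3B and under scaling by library totals. The calls of MRPS18A and MRPS18B were also lost without the block, while that of MRPS18C was kept.

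**Figure D3:**
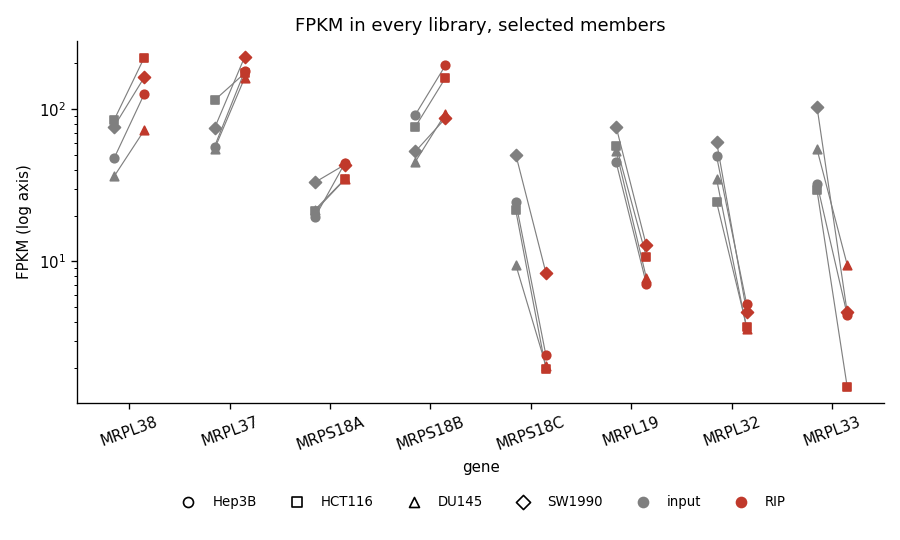
FPKM (y axis, log scale) of 8 mitochondrial ribosomal protein mRNAs in the input (grey) and RIP (red) library of each cell line (marker shape), with a line joining the libraries of a cell line. MRPL38, MRPL37, MRPS18A, and MRPS18B are higher in RIP in every line, and MRPS18C, MRPL19, MRPL32, and MRPL33 are lower in every line.

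Promoter sequence is described as a feature that the rule for members did not use. It was not tested as a cause of the changes in RIP. RefSeq promoters (GRCh38.p14, 250 bases before to 50 after a start) were found for 67 of 76 symbols, with 83 starts in all. The printed stretches are the 250 bases before the start of the first member by increase, of the member second by decrease, and of the S18 paralogues, from 5′ to 3′ on the strand of the gene. Capitals mark matches, on either strand, to the motifs of ETS factors (CCGGAAG), NRF1 (GCGCATGCG), and YY1 (AAGATGGCG).
MRPL38 promoter (chr17:75904885-75905134, minus strand): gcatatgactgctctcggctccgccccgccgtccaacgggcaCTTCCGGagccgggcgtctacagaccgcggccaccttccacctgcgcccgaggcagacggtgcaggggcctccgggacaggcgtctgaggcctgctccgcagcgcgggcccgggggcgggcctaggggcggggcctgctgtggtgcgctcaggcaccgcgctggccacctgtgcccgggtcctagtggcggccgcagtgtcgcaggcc
MRPL33 promoter (chr2:27771469-27771718, plus strand): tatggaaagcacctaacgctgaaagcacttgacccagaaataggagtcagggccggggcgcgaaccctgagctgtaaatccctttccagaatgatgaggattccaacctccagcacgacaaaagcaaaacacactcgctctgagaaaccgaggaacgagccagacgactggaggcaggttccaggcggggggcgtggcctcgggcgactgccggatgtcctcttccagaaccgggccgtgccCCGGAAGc
MRPS18A promoter (chr6:43687792-43688041, minus strand): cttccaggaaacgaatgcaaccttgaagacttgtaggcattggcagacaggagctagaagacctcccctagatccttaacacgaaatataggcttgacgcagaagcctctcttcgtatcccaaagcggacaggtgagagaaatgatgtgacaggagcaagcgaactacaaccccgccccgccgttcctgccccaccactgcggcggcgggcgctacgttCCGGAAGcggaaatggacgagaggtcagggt
MRPS18B promoter (chr6:30617590-30617839, plus strand): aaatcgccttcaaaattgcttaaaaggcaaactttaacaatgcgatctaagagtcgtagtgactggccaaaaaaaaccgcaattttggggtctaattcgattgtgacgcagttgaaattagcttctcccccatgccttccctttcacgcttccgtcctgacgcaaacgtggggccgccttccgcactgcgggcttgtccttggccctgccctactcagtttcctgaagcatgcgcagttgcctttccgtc
MRPS18C promoter (chr4:83455808-83456057, plus strand): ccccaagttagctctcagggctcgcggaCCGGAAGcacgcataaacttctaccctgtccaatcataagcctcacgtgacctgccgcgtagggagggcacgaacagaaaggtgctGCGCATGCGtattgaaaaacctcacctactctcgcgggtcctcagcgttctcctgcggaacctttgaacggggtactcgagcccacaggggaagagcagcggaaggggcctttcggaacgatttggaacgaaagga

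The ETS letters stood before the start of MRPL38 and MRPS18A, which rose, and of MRPL33 and MRPS18C, which fell. The NRF1 letters stood before the start of MRPS18C, and those of YY1 within the 50 bases after the start of MRPL38, MRPS18A, and MRPS18B. The promoter of MRPL37, second by increase and not printed here, held none of the ETS, NRF1, or YY1 letters. That of MRPL30, the lowest member and also not printed, held the ETS letters. Over the 83 member promoters, 38.6% held the ETS letters, against 10.3% of all 35116 promoters of this length and 15.1% of those of other tested protein-coding genes. Promoters of cytosolic ribosomal protein genes came close to this share, with 33.3% of 78. The YY1 letters were in 15.7% of member promoters, 1.75% of all promoters, 2.94% of those of other protein-coding genes, and 6.41% of those of cytosolic ribosomal protein genes. NRF1 letters were in 3.61%, 1.92%, and 2.73%. The SP1 letters (GGGGCGG) were in 41.0%, 30.8%, and 45.7%, and CCAAT was in 33.7%, 34.6%, and 34.2%. None of these motifs holds another, but the end of the ETS letters can overlap the start of the YY1 letters. Among members with a promoter, the median log2 fold change in RIP was -1.05 for the 29 that held the ETS letters and -0.88 for the 38 that did not, and it was -1.19 for the 13 with the YY1 letters and -0.97 for the other 54. For the SP1 letters the order was turned, with -0.69 for the 32 that held them and -1.22 for the other 35. These differences were not tested. A match describes these letters only.

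Members of both subunits fell more often than they rose. Of 49 tested large subunit mRNAs, 33 fell and 9 rose, with a median log2 fold change of -0.90, and of 27 small subunit mRNAs, 16 fell and 3 rose, with a median of -1.05. Among the 47 members with a bacterial counterpart, 32 fell and 7 rose (median -0.97), and among the 29 without one, 17 fell and 5 rose (median -0.90). These groups were not tested against each other. MRPS36, now known as a subunit of the ketoglutarate dehydrogenase complex and placed in neither group, fell 5.15-fold (-2.36 ± 0.41 SE, edgeR adjusted p = 0.000811).

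The members were well expressed in all 4 lines. The median FPKM over the 77 members was 41.2 in the Hep3B, 47.2 in the HCT116, 40.6 in the DU145, and 68.2 in the SW1990 input, and in the RIP libraries it was 32.2, 27.7, 26.3, and 35.8. SW1990 held the highest input of the 4 lines for 55 members and DU145 the lowest for 31. Levels were set across 2 tables that may have been normalized separately, each input is 1 library, and in bulk RNA a level in all cells cannot be told apart from a level in some of them.

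MRPS24, a small subunit protein, was the most abundant member, with inputs of 176.5, 144.1, 132.2, and 247.7 FPKM, a mean of 175.1 ± 51.9 FPKM (SD, n = 4). MRPL51, a large subunit protein without a bacterial counterpart, followed with 163.2 ± 60.9 FPKM, then MRPL3 with 139.2 ± 60.7 FPKM and MRPL42 with 130.8 ± 21.8 FPKM (SD, n = 4). Neighbours in this order differed by less than their SD. In RIP, MRPL42 fell 5.5-fold (-2.46 ± 0.25 SE, edgeR adjusted p = 2.77e-05) and MRPL51 fell 1.87-fold (-0.90 ± 0.18 SE, edgeR adjusted p = 0.00200). MRPL3 was at the edge of the threshold (-0.52 ± 0.17 SE, edgeR adjusted p = 0.0298). Its call was lost without HCT116, without DU145, without SW1990, without the block, and with limma on FPKM. MRPS24 was not called (-0.21 ± 0.24 SE, edgeR adjusted p = 0.495), with RIP above input in Hep3B cells and below it in the other 3 lines. Without Hep3B it was -0.60 and called lower (edgeR adjusted p = 0.0370).

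At the low end, apart from the second rows of MRPL30 and MRPS17, stood MRPS31 with 6.14 ± 2.43 FPKM and MRPL30 with 11.2 ± 3.63 FPKM in the inputs (SD, n = 4). MRPS31 fell 3.59-fold (-1.85 ± 0.38 SE, edgeR adjusted p = 0.00204). Across the 77 members Spearman's rho of mean input FPKM with log2 fold change was 0.27, and across 14640 protein-coding genes it was -0.16. These values are a description, because FPKM and fold change come from the same libraries.

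Several inputs differed strongly between lines. MRPL23, which lies at the tunnel exit, had 11.8 FPKM in DU145, 55.1 in Hep3B, 79.6 in HCT116, and 183.8 in SW1990 cells, a 15.6-fold range. MRPL1 ranged 6.10-fold, from 7.83 FPKM in DU145 to 47.7 in SW1990 cells. MRPS15 ranged 5.87-fold, from 35.4 FPKM in Hep3B to 207.6 in SW1990 cells, and MRPS18C ranged 5.28-fold. Except for MRPS15, lowest in Hep3B, DU145 held the lowest value of these 4 mRNAs, and SW1990 held the highest of each. The range within a group of cell lines has no replicate and was not tested. In RIP, MRPS15 was not called (-0.41 ± 0.26 SE, edgeR adjusted p = 0.218), but was called lower at -0.80 without Hep3B (edgeR adjusted p = 0.0219) and at -0.77 under scaling by library totals (edgeR adjusted p = 0.0436).

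The ratio of RIP to input varied most between lines for MRPL1, whose log2 ratio was -0.37 for Hep3B, -1.70 for HCT116, -2.11 for DU145, and -3.45 for SW1990. It fell 6.26-fold over the 4 lines (-2.65 ± 0.38 SE, edgeR adjusted p = 0.000235). MRPL53 had 0.61, -0.91, 0.02, and -1.52 in the same order and was not called (-0.17 ± 0.31 SE, edgeR adjusted p = 0.679). Its sign turned to 0.03 without HCT116 and to 0.16 without SW1990. MRPS21 had 0.04, -0.59, -1.88, and -1.39 and fell 2.33-fold (-1.22 ± 0.29 SE, edgeR adjusted p = 0.00482), and MRPS36 had -0.26, -2.18, -1.88, and -1.46. For these 4 mRNAs the highest ratio was that of Hep3B cells. The median SD of the log2 ratio over lines was 0.38 for a member.

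Length moved with the fold change among protein-coding genes. The effective length implied by fragments and FPKM in the inputs had a median of 1111 bases for the members and 2312 for protein-coding genes. Protein-coding genes of 500 to 750 bases had a median log2 fold change of -0.85, and those over 3000 bases had 0.44. At matched lengths, members of 500 to 750 bases had a median of -0.97 (n = 12), and members of 1000 to 1500 bases had -0.65 (n = 25) against -0.18 for protein-coding genes. Members of 1500 to 2000 bases had -1.37 (n = 16) against 0.12. Spearman's rho of implied length with log2 fold change was 0.00 across the 77 members and 0.25 across protein-coding genes, described over genes that share the same libraries. For the median member, the implied length in RIP relative to input was between -0.41 and -0.69 on the log2 scale. This makes FPKM ratios run above count ratios. In the deposited counts, 1 fragment stood for 0.67 to 1.02 counts in the inputs and for 1.09 to 1.27 in RIP. A difference of scaling between libraries can therefore not be told apart from a difference of length in these values. The part of length in the result was not tested beyond these values.

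**Figure D4:**
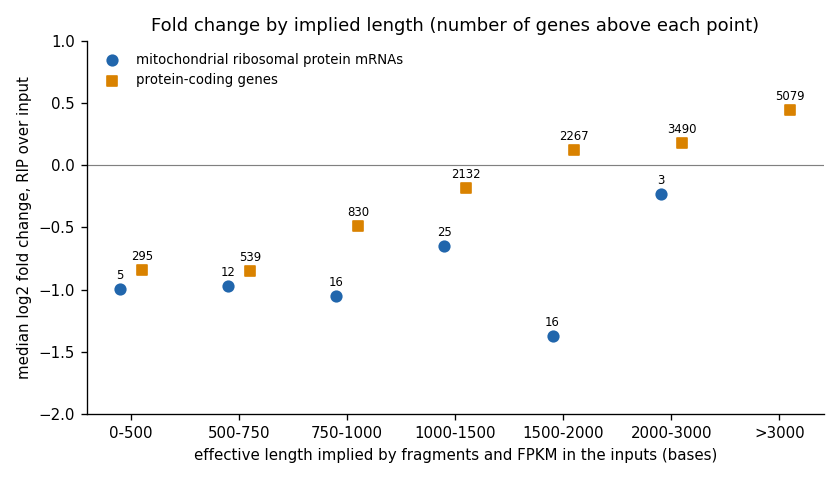
Median log2 fold change of RIP over input (y axis) by effective length implied in the inputs (x axis, bases), for mitochondrial ribosomal protein mRNAs (blue circles) and protein-coding genes (orange squares), with the number of genes above each point. Members lie at -0.97 against -0.85 for 500 to 750 bases and at -1.37 against 0.12 for 1500 to 2000 bases.

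Other genes of mitochondrial translation were compared as lists. Of 7 mitoribosomal proteins with other symbols, 4 had an unadjusted p under 0.05 (edgeR), as had 11350 of all 19921 genes tested. After adjustment, 3 of the 7 fell and 0 rose, and the median of the 7 was -0.09. The reduced ones were ICT1, a peptide release factor built into the large subunit (-2.14 ± 0.21 SE), CHCHD1 (-1.72 ± 0.30 SE), and MRP63 (-1.69 ± 0.24 SE), with edgeR adjusted p of 2.22e-05, 0.000869, and 0.000211. Of 29 assembly factors, 14 rose and 4 fell, with a median of 0.48. DHX30, an RNA helicase of mitochondrial RNA granules, rose most (2.26 ± 0.21 SE, edgeR adjusted p = 1.72e-05), followed by DDX28, another helicase (1.60 ± 0.28 SE, edgeR adjusted p = 0.000851). GTPBP10, a GTPase of large subunit assembly, fell most (-2.28 ± 0.25 SE, edgeR adjusted p = 4.34e-05), followed by YBEY (-1.57 ± 0.25 SE, edgeR adjusted p = 0.000408).

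Of 20 mitochondrial translation factors, 5 rose and 9 fell, with a median of -0.26. TUFM, the mitochondrial elongation factor Tu, rose 2.85-fold (1.51 ± 0.21 SE, edgeR adjusted p = 0.000175) and GTPBP3, a tRNA modifying GTPase, rose 2.37-fold (edgeR adjusted p = 0.000288). MTIF3, an initiation factor, fell 8.35-fold (-3.06 ± 0.36 SE, edgeR adjusted p = 6.16e-05) and SLIRP, a stabilizer of mitochondrial mRNAs, fell 6.98-fold (edgeR adjusted p = 1.27e-05).

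Nuclear-encoded respiratory chain mRNAs had a similar split, with 55 of 81 lower, 10 higher, and a median of -1.13. UQCRC1 and CYC1, both of complex III, were the highest (1.87 ± 0.19 and 1.79 ± 0.20 SE), and NDUFB1 and NDUFA5, both of complex I, the lowest (-3.82 ± 0.33 and -3.47 ± 0.22 SE), with edgeR adjusted p of at most 4.72e-05. Of 79 cytosolic ribosomal protein mRNAs, 59 were lower and 1 was higher, with a median of -1.93. RPLP1 was the lowest (-3.96 ± 0.36 SE, edgeR adjusted p = 1.65e-05), then RPS12 (-3.79 ± 0.37 SE, edgeR adjusted p = 2.41e-05). RPL3 was the one that rose (0.72 ± 0.27 SE, edgeR adjusted p = 0.0484), and RPL30 was the least reduced of those that fell (-0.88 ± 0.21 SE, edgeR adjusted p = 0.00477). The lists were not tested against each other.

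All 13 mRNAs encoded by mitochondrial DNA, which are translated by the mitochondrial ribosome and not by the cytosolic one, were lower in RIP, with a median of -5.05. MT-ND3 and MT-CO2 were the lowest (-6.44 ± 1.10 and -5.70 ± 0.48 SE, edgeR adjusted p = 0.000671 and 1.38e-05), and MT-CO1 and MT-ND4L were the least reduced (-3.29 ± 0.38 and -4.54 ± 0.54 SE, edgeR adjusted p = 6.01e-05 and 7.04e-05). The nuclear noncoding RNAs MALAT1 and NEAT1 fell 8.2-fold and 7.6-fold (-3.04 ± 0.37 and -2.93 ± 0.30 SE, edgeR adjusted p = 7.50e-05 and 2.78e-05). The log2 fold changes of MRPL30, MRPL33, and MRPL32 lay below those of MALAT1 and NEAT1, a difference that was not tested, and no member was as low as the median of the mitochondrially encoded mRNAs.

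**Figure D5:**
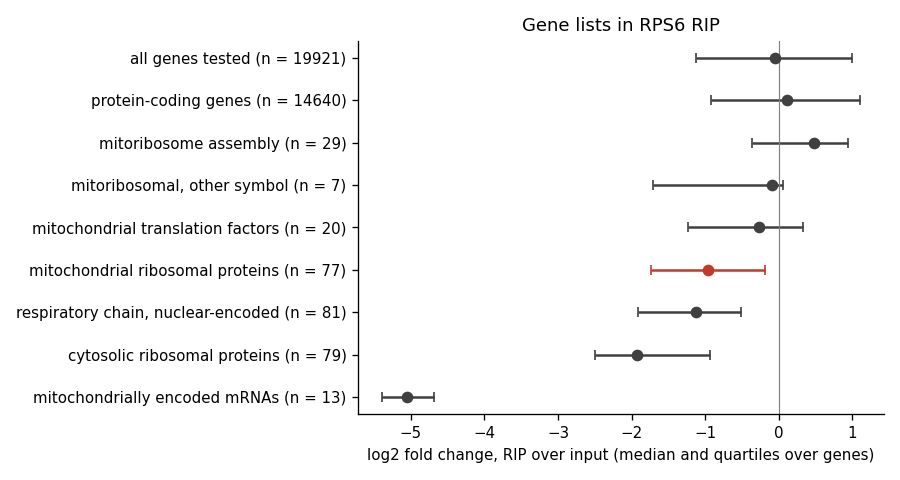
Log2 fold change of RIP over input (x axis), as median and quartiles over the genes of each list (y axis, with the number of genes tested). The median lies at -0.97 for mitochondrial ribosomal proteins, 0.48 for mitoribosome assembly factors, -1.93 for cytosolic ribosomal proteins, and -5.05 for mitochondrially encoded mRNAs.

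Loci that overlap limit the precision for single members. The tables give a locus of several genes for 48 of the 78 members, with up to 15 genes, and only 30 members stand alone at their locus. Of these 30, 21 fell and 4 rose, with a median of -1.06. The strongly reduced MRPL33, MRPL32, MRPL19, MRPL47, and MRPS18C are not among them, with loci of 9, 5, 6, 4, and 4 listed genes. MRPL46, of the large subunit, and MRPS11, of the small subunit, are listed at 1 locus on chromosome 15 (hg19, chr15:89002706-89089906). Their log2 fold changes in RIP were -1.83 ± 0.25 SE for MRPL46 (edgeR adjusted p = 0.000170) and -0.05 ± 0.20 SE for MRPS11 (edgeR adjusted p = 0.840). This pair is named after its values were seen, and the difference was not tested.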

How the data were processed

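RIP and input RNA of 4 cell lines was sequenced, 8 libraries in all. The authors aligned reads to human genome version 19 with TopHat (TopHat2 2.0.9 and CASAVA 1.8 in the submitters' processing notes) and deposited FPKM and estimated counts for 57756 genes. The counting tool and annotation are not given in the sources used here. The deposited counts are not whole, although the design had assumed raw counts. Between 92.5% and 93.9% of values were whole multiples of a common step within 0.02, which gave the recovered fragments, and how the remaining values arose was not tested. The authors' 4 files of comparisons within a cell line, with fold changes and p-values, were not used.

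Counts were rounded and tested with edgeR 4.0.16 (R 4.3.3; quasi-likelihood, TMM, cell line as a block, mean count of at least 10, Benjamini-Hochberg adjustment over all genes, threshold 0.05). The lines pair the libraries by design, and each RIP library deviated from its group mean together with the input of its line (r of 0.84 to 0.89 over 19921 genes). The fit was tested on simulated data. Pairs are different cell lines with no replicate within a line. The p-values therefore rest on how the difference of RIP and input varies between lines, with a dispersion moderated over all genes tested. Each SE is the size of the log2 fold change divided by the square root of the quasi-likelihood F statistic. Protein-coding genes and promoters came from RefSeq tables of GRCh38.p14. Protein-coding genes were matched by Ensembl identifier, symbol, or synonym, and promoters by symbol. Lengths of proteins were not used here, and length was implied from fragments and FPKM. Alternatives used DESeq2 1.42.0, limma 3.58.1, other scalings and filters, and left out each line. Python 3.11.15 was used for the other steps.

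Members, lists, and tests were chosen with earlier results of these data known. Named members are the 6 highest and 6 lowest called with 1 direction in all lines, the 4 most and 4 least abundant, the 4 with the widest ratio, the 4 with the widest input range, and the 1 not tested. Of other lists, the 2 highest and 2 lowest called are named, or all where at most 3 were called. The list of nuclear noncoding RNAs holds MALAT1 and NEAT1.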

Additional observations from a re-analysis of the deposited data

Results flagged for a closer look

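Of 72 groups of 4 values for the named members (ratios, inputs, and RIP values over the 4 lines), 6 had 1 value far from the others, and chance alone would mark about 1 in 20 of groups not chosen by their values. That rate does not hold here, because MRPS36, MRPL53, and MRPS18C are among the members named for a wide ratio or input range. The log2 ratio of MRPL37 in HCT116 cells was 0.58, against 1.53 to 1.63 in the other lines. The log2 ratio of MRPS18B in SW1990 cells was 0.71, against 1.03 to 1.07. MRPS18C had 8.43 FPKM in the RIP library of SW1990 cells, against 1.96 to 2.42. MRPL42 had 73.4 FPKM in the RIP library of Hep3B cells, against 22.7 to 24.7 in the others. The SW1990 input held 26.7 FPKM of MRPS36, against 7.99 to 11.2, and 185.4 FPKM of MRPL53, against 60.7 to 63.5. Each is 1 library, and the source of these values was not tested.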

How the results depend on the processing

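All 50 members called lower kept that call under DESeq2, other scalings, other minimum counts, and the recovered fragments, and none of the 62 called members changed its sign under any alternative. Without the block for cell line, the counts dropped to 20 lower and 1 higher. Over all 19921 genes the calls dropped to 1344 lower and 1427 higher. With libraries scaled by their totals, 3 members were higher, 55 were lower, and the median log2 fold change was -1.32. That scaling called 3888 of the 19921 genes higher and 6384 lower. Leaving out each line in turn gave 7 to 12 members higher, 46 to 52 lower, and medians from -1.12 to -0.91. Of the 19325 to 19987 genes tested in these fits, 4448 to 4808 were called higher and 4084 to 5083 lower. Scaling by upper quartiles or centring on protein-coding genes left 9 members higher, and limma on log2(FPKM + 1) gave 11 higher and 45 lower. Over all genes tested, the 2 scalings called 4782 and 4814 higher. The limma fit called 4831 of 16900 genes higher and 3389 lower. MRPL53, which was not called, was -0.54 without replicate 1 (Hep3B), and turned to 0.03 without replicate 2 and 0.16 without replicate 4, which are HCT116 and SW1990. The causes were not tested. MRPS18C, MRPL33, and other reduced members rest on fewer than 100 fragments in several RIP libraries, which limits the precision of their folds, and intervals between lines cover no spread within a line.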
